A study of Mus musculus with 12 samples.

Results

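RNA carried by ribosomes labelled at the endoplasmic reticulum (ER) was compared with the RNA of the whole lysate from which those ribosomes were purified. The comparison took in every sample labelled as ribosome-bound RNA of the ER (3 replicates) and every sample labelled as whole-cell RNA of the ER (3 replicates), 6 of the 12 samples of the series, and all genes were counted. The cells, mouse embryonic stem cells (E14Tg2a.4), were ones in which the large-subunit ribosomal protein Rpl31 carried FLAG and AviTag peptides with a TEV protease site between them, so both groups had the tag. They were grown with serum and leukemia inhibitory factor and transfected with plasmids for both fragments, N-terminal and C-terminal, of ALIBi, a split proximity-biotinylation system that was targeted to the ER here and to the cytosol in the other 6 samples. Cells were lysed with cycloheximide and the detergent n-dodecyl maltoside. An aliquot of lysate was set aside as whole-cell RNA, and biotinylated ribosomes were captured and released with TEV protease. Both kinds of RNA were selected for poly(A) before sequencing. The labels name the replicates biological, but not which culture or day each came from. The p-values therefore rest on the spread among these samples, and that spread may be partly technical. A ratio of ribosome-bound over whole-cell RNA is relative within each library, and it does not tell an mRNA with more of its copies on labelled ribosomes from one with more labelled ribosomes per copy.

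Proteins that are secreted, embedded in membranes of the secretory route or kept in its lumen are mostly made by ribosomes docked on the ER. A hydrophobic stretch at the start of the nascent chain, or the first membrane-spanning segment, is bound by the signal recognition particle (SRP), which brings the ribosome to its receptor and to the Sec61 channel. There the chain is threaded through or into the membrane while it is still being made, is glycosylated by the oligosaccharyltransferase and is folded by lumenal chaperones. Proteins with a single anchor at the very C terminus finish synthesis first and are inserted afterwards by the GET pathway and the ER membrane complex, while most mitochondrial proteins are imported after synthesis in the cytosol.

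Between 23.4 and 26.9 M reads were counted in genes in the ER ribosome-bound libraries and between 21.1 and 26.8 M in the whole-cell libraries. Reads outside genes made up 8.75% to 9.6% of the former and 11.62% to 11.85% of the latter. Levels are given in CPM, counts relative to a library size scaled by the trimmed mean of M values (TMM), and are comparable between samples for 1 gene but not between genes of different length. The labelled cell type was checked by its markers. The 8 embryonic stem cell markers summed to 8460 to 8760 CPM in whole-cell RNA and 13000 to 13500 CPM in ribosome-bound RNA. In whole-cell RNA the markers of extra-embryonic endoderm summed to 23.2 to 24.1 CPM (8 of 10 genes measurable), those of fibroblasts to 40.6 to 41.2 CPM (5 of 10), of mesoderm to 17.8 to 20.6 CPM (7 of 8), of neural cells to 79.3 to 84.3 CPM (6 of 8) and of trophoblast to 115 to 119 CPM (3 of 8). The trophoblast markers Tpbpa and Prl3d1 had no read in any of the 6 libraries. On ribosomes the fibroblast markers summed to 96.3 to 101 CPM and the endoderm markers to 37.9 to 42.6 CPM, and their part in the results below was not tested. In such bulk samples fewer cells of a type and less RNA per cell cannot be told apart.

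At an adjusted p under 0.05, 5271 genes (32.5% of 16221) stood higher on ER-labelled ribosomes and 4967 (30.6%) lower (quasi-likelihood test of edgeR, Benjamini-Hochberg adjustment, which defines "higher", "lower" and "called" throughout). The changes were unequal in size. A called change of over 2-fold upward was found in 2674 genes (16.5%) and downward in 312 (1.92%), and the median log2 ratio over all tested genes was 0.01. Tested against a 2-fold change, 1820 genes were higher and 159 lower. The smaller shifts depend on what is taken as constant. With libraries scaled on cytosolic housekeeping proteins alone (138 genes of glycolysis, translation, the proteasome, tRNA charging and cytosolic chaperones), the median log2 ratio of all genes rose by 0.236, giving 8246 higher and 2343 lower genes. Ratios between about -0.24 and 0 therefore change sign with this scaling. List medians and gene ratios to which that applies are given with both values below.

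Sequence was the first feature examined. The coding sequences below are the 90 bases that begin or end the coding part of a transcript, 5′ to 3′, from GENCODE M21 (genome build GRCm38). They are shown because they carry, in capitals, the 57 bases that encode the most N-terminal or the C-terminal 19-residue hydrophobic segment found in the protein. A segment is a 19-residue window with a mean Kyte-Doolittle hydropathy of at least 1.6. The first 4 come from genes among the most enriched of their lists, the fifth from a secreted protein of 3083 residues that was lower on ER-labelled ribosomes.
Pdia6 (chromosome 12, segment at residues 3 to 21 of 445): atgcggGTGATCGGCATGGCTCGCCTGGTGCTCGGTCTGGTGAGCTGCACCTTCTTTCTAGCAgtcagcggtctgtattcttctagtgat
Ddost (chromosome 4, residues 7 to 25 of 441): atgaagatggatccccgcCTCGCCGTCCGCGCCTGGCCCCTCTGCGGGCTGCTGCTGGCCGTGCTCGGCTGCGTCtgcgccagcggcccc
Creld2 (chromosome 15, residues 3 to 21 of 350): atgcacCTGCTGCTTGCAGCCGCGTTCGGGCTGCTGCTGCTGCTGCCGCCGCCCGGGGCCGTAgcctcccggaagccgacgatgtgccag
Psap (chromosome 10, residues 1 to 19 of 557): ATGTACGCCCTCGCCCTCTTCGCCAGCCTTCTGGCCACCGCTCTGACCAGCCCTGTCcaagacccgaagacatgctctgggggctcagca
Lama1 (chromosome 17, residues 4 to 22 of 3083): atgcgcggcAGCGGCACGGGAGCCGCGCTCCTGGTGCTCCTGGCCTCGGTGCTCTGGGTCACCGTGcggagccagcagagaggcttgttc

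The next 2 sequences are the last coding bases of tail-anchored proteins, whose only hydrophobic segment emerges from the ribosome when translation is over. They are shown against the leaders above because neither mRNA was higher on ER-labelled ribosomes with TMM scaling (Sec61b was under cytosolic scaling, as given below).
Sec61b (chromosome 4, residues 71 to 89 of 96): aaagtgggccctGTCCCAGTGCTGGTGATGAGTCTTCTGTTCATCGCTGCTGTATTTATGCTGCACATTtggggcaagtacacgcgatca
Stx16 (chromosome 2, residues 305 to 323 of 326): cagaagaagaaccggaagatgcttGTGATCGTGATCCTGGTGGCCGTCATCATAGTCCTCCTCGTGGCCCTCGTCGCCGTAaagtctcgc

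The last sequence begins Sar1b (chromosome 11, 198 residues), a small GTPase with no 19-residue segment anywhere in the protein and so without capitals, shown because its mRNA was enriched nonetheless.
Sar1b: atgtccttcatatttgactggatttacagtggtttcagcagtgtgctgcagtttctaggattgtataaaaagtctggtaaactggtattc

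Over the 14120 tested genes with a protein in the annotation, the place of the segment went with the share of called genes. An N-terminal segment was one that starts within the first 30 residues. Of 811 genes with an N-terminal segment and no other, 83.6% were higher and 3.95% lower, and 62.1% were higher by over 2-fold, with a median log2 ratio of 1.25. Of 1048 genes with an N-terminal segment and further ones, 90.8% were higher and 1.15% lower, with a median of 1.24. Genes with several internal segments followed (1255 genes, 70.9% higher, 14.8% lower, median 0.85). The 9248 genes without a segment were higher in 18.8% and lower in 40.9%, 4.16% being over 2-fold higher, with a median of -0.09 that was 0.14 under cytosolic scaling. The share higher by over 2-fold among all 14120 genes was 17.6%.

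A single internal segment gave no such pattern at this threshold, with 36.9% higher and 37.4% lower of 1375 genes and a median of 0.01. With a stricter mean of 1.9, 881 genes had a single internal segment, 69.5% of them higher with a median of 0.87, and the median of genes with only a C-terminal segment (fewer than 50 residues after it) went from 0.15 in 383 genes to 0.71 in 428. The classes with an N-terminal segment had medians of 1.25 and 1.23 at the stricter mean.

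**Figure D1:**
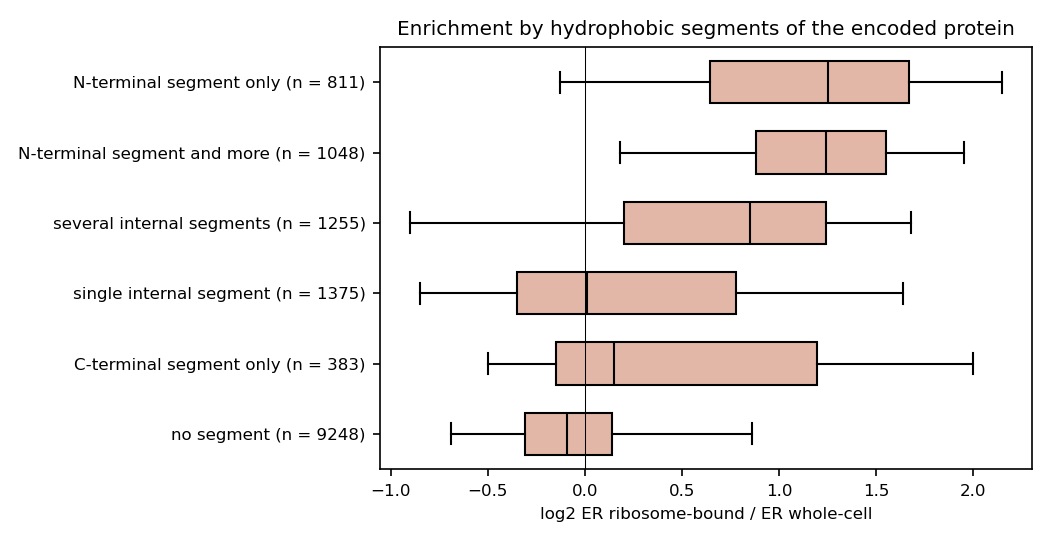
Log2 ratio of ER ribosome-bound over whole-cell RNA (x axis) for genes grouped by the hydrophobic segments of their protein (y axis). Boxes span the quartiles with the median, whiskers the 5th to 95th percentile, and the classes with an N-terminal segment have medians of 1.25 and 1.24 while genes without a segment lie around -0.09.

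What remained of the chain after the segment also varied. Among proteins with only an N-terminal segment, the median log2 ratio was 0.46 in the 25 genes with at most 50 residues after it, 0.88 in 44 genes with more than 50 and up to 100, and 1.51 in 61 genes with more than 100 and up to 150. It was 1.49, 1.32 and 1.08 in the longer classes (123 genes up to 250 residues, 337 up to 500 and 221 above). Ost4, a subunit of the oligosaccharyltransferase with 37 residues in all, was at 0.15 (SE 0.044). Among C-terminal segments, the median was 0.08 in 219 genes with up to 20 residues after the segment, 0.37 in 81 genes with more than 20 and up to 35, and 0.44 in 83 genes with more. These classes differ in composition as well as in length, and no test was made between them.

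The 12 highest ratios were taken among called genes that reached 10 CPM in an ER group and had no clone or model name. Their ribosome-bound and whole-cell libraries also had to be without overlap, so separation of the groups was a condition of selection. The 12 were of the secretory route except for Zscan4a and Zscan4c. Dkkl1, a secreted protein related to the Dickkopf family, was at 14.0, 14.7 and 12.3 CPM on ribosomes and 2.5, 2.21 and 2.47 CPM in whole-cell RNA. The groups did not overlap, and the ratio was 5.68-fold (log2 2.5, SE 0.134, adjusted p = 2.2e-18). Fstl3, a secreted binder of activins, was at 56.7, 62.5 and 52.7 CPM against 11.5, 12.4 and 9.92 CPM. All 3 ribosome-bound values were above all whole-cell values, at 5.13-fold (log2 2.36, SE 0.081, adjusted p = 3.3e-24). The others of the 12 highest had log2 ratios of 2.35 to 2.69. They were the protease inhibitor Serpine2, the MHC class II chain H2-Eb1, the sialomucin Cd34, the inner-ear matrix protein Coch, the carboxypeptidase Cpz, the proenkephalin Penk, the proprotein convertase inhibitor Pcsk1n, the receptor chaperone Lrpap1, and Zscan4a and Zscan4c. The last pair, nuclear zinc-finger proteins of the 2-cell-like state, are not secretory proteins and are taken up with their list below. H2-Eb1 and the Zscan4 genes have close relatives in the genome, and reads could have been divided among them.

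Genes at the other end, picked under the same conditions, mostly coded for very large proteins. Mdn1, an ATPase of ribosome assembly with 5582 residues, was at 24.6, 24.3 and 26.4 CPM on ribosomes and 98.7, 105.3 and 111.8 CPM in whole-cell RNA. The groups were far apart, and its level on ribosomes was 4.2-fold lower (log2 -2.07, SE 0.055, adjusted p = 2e-27). Dync1h1, the heavy chain of cytoplasmic dynein with 4644 residues, was at 101.3, 105.3 and 99.6 CPM against 367.9, 396.2 and 369.3 CPM. Here too the groups stood far apart, by 3.7-fold (log2 -1.89, SE 0.044, adjusted p = 4.5e-29). The lowest 12 outside the mitochondrial genome further held the microtubule-binding Map1a (-1.91, 3014 residues), the ubiquitin ligases Birc6 (-1.85, 4873 residues), Ubr4 (-1.8, 5180 residues) and Mycbp2 (-1.66, 4746 residues), the repair proteins Brca2 (-1.76, 3329 residues) and Rif1 (-1.75, 2426 residues), the lipid-transfer protein Vps13b (-1.73, 3993 residues), the DNA polymerase subunit Pola1 (-1.65, 1465 residues) and the imprinted noncoding RNA Rian (-2.02). Mars, the methionyl-tRNA synthetase, had the lowest ratio of these at -2.65 (SE 0.049), but it overlaps Ddit3, and counts of overlapping genes are uncertain here.

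**Figure D2:**
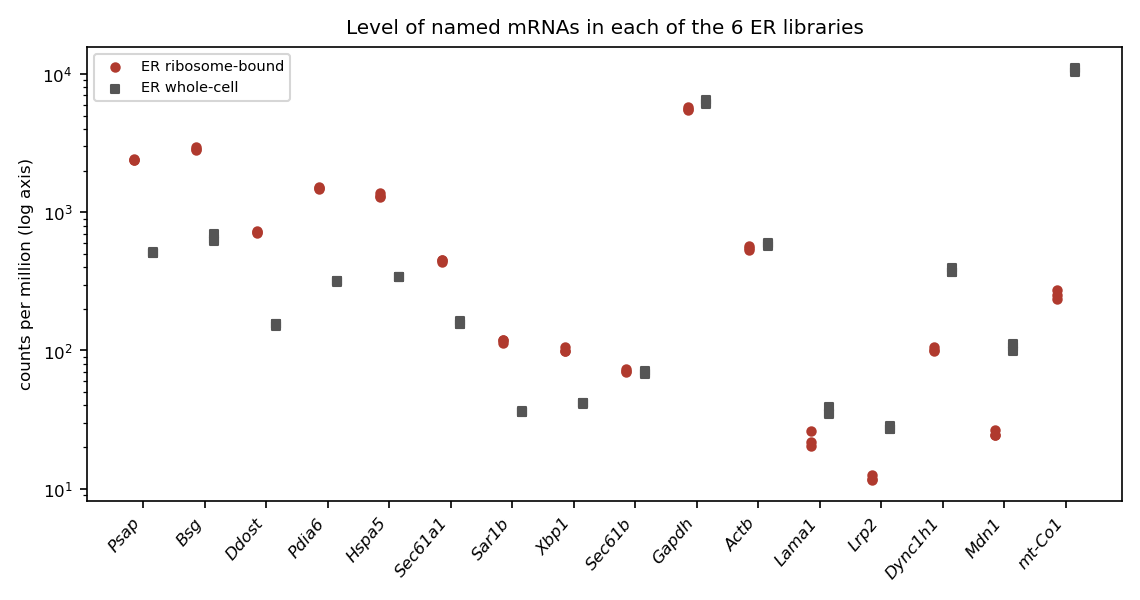
Levels (CPM, log axis) in each of the 6 ER libraries for 16 genes; every point is 1 library, ribosome-bound or whole-cell. The ribosome-bound points of Psap, Bsg, Ddost and Pdia6 lie over 4-fold above their whole-cell points, those of Sec61b overlap them, and those of Dync1h1, Mdn1 and mt-Co1 lie below.

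Most mRNAs of the targeting and translocation machinery were higher on ER-labelled ribosomes. Of 25 genes of the SRP pathway and translocon, 19 were higher and 2 lower (background 32.5% and 30.6%), with a median log2 ratio of 1.17. Sec61a1, the channel-forming subunit, was at 448.5, 435.5 and 449.3 CPM on ribosomes and 155.9, 162.2 and 156.0 CPM in whole-cell RNA. The groups were well separated, by 2.81-fold (log2 1.49, SE 0.035, adjusted p = 5.1e-29). Sec61b, the tail-anchored subunit of the same channel, was at 69.6, 73.2 and 71.0 CPM against 71.5, 67.3 and 69.0 CPM. Its groups overlapped, and the log2 ratio was 0.04 (SE 0.042, adjusted p = 0.4), or 0.28 under cytosolic scaling, where it was called. The translocon-associated subunits Ssr2 and Ssr1 reached 1.97 (SE 0.034) and 1.72 (SE 0.033).

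Both subunits of the SRP receptor were higher. Srprb, the membrane-anchored beta subunit, was at 141.0, 139.7 and 137.0 CPM on ribosomes against 53.7, 47.3 and 52.5 CPM (log2 1.44, SE 0.044). Srpr, the alpha subunit, has no hydrophobic segment by this search and binds the membrane through the beta subunit. It stood at 321.9, 328.9 and 320.8 CPM against 147.3, 142.4 and 149.6 CPM, with no overlap (log2 1.14, SE 0.039, adjusted p = 2.4e-24). The 2 lower members were soluble SRP proteins. Srp54a had a log2 ratio of -0.36 (SE 0.113), a call lost when ER ribosome-bound replicate 1 was left out (-0.24) and under cytosolic scaling (-0.13), and Srp68 one of -0.12 (SE 0.035), a call lost without ER ribosome-bound replicate 3 (-0.08) and 0.12 under cytosolic scaling.

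All 11 subunits of the oligosaccharyltransferase were higher, with a median of 1.30. Ddost was at 714.1, 733.4 and 711.1 CPM on ribosomes and 156.5, 155.2 and 151.1 CPM in whole-cell RNA. The ribosome-bound values exceeded the whole-cell values by 4.66-fold (log2 2.22, SE 0.037, adjusted p = 4.5e-33). Rpn2 followed at 1.97 (SE 0.034). The catalytic subunit Stt3a was much lower in the order, at 0.35 (SE 0.044), next to the 37-residue Ost4. Of 17 genes of the ER membrane complex and the GET pathway, 12 were higher and 3 lower (median 0.65). Emc10 and Emc7, subunits with lumenal domains, were at 1.87 (SE 0.038) and 1.84 (SE 0.052), while Bag6, a cytosolic chaperone of tail-anchored clients, was lower at -0.32 (SE 0.037).

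Every one of the 41 ER chaperones and folding enzymes was higher, each by over 2-fold, against 16.5% of all tested genes, and their median was 1.75. Pdia6, a protein disulfide isomerase, was at 1498.7, 1474.1 and 1525.2 CPM on ribosomes and 312.4, 317.1 and 316.6 CPM in whole-cell RNA. The ratio was 4.75-fold (log2 2.25, SE 0.039, adjusted p = 1.6e-32), and the groups lay far apart. Hspa5 (BiP), the Hsp70 chaperone of the lumen, was at 1307.0, 1295.2 and 1368.3 CPM against 342.0, 338.0 and 340.5 CPM, or 3.89-fold (log2 1.96, SE 0.037). Creld2, a stress-inducible folding factor, led the list at 2.27 (SE 0.041). Lowest in the list were glucosidase II alpha (Ganab, 966 residues) at 1.18 and the glycoprotein folding sensor Uggt1 (1551 residues) at 1.01 (SE 0.045).

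ER-associated degradation split by where its proteins sit. Of 23 membrane or lumenal members, 20 were higher and 2 lower (median 0.99), led by the mannosidase-like Edem2 (1.94) and the retrotranslocation protein Derl3 (1.93). Of 15 cytosolic members, 2 were higher and 9 lower, with a median of -0.21 that was 0.03 under cytosolic scaling (6 higher, 6 lower). The deubiquitinase Yod1 was at -0.74 (SE 0.137) and the deglycosylating enzyme Ngly1 at -0.37 (SE 0.105, or -0.14 and not called under cytosolic scaling).

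Enzymes that build glycans and lipids in the ER membrane were mostly higher. In the assembly of GPI anchors and dolichol-linked glycans, 40 of 44 genes were higher and 3 lower (median 1.11). The transamidase subunits Pigs and Pigt were at 1.82 (SE 0.038) and 1.75 (SE 0.039). Piga and Alg13, catalytic subunits on the cytosolic face, were lower at -0.49 (SE 0.056) and -0.85 (SE 0.034). Of 52 lipid enzymes of the ER membrane, 50 were higher (median 1.21), with Dgat2, which completes triglycerides, at 1.89 and the sterol reductase Dhcr7 at 1.72. The 2 lower ones were lanosterol synthase (Lss, -0.55, SE 0.052) and the phosphatidate phosphatase Lpin1 (-0.27, SE 0.062, or -0.03 and not called under cytosolic scaling), neither of which has a hydrophobic segment by this search.

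Cytosolic lipid enzymes contrasted with these, with 3 of 20 higher and 13 lower and a median of -0.21, or 0.02 with 7 and 7 under cytosolic scaling. Fatty acid synthase (Fasn) was at -1.12 (SE 0.042) and Hmgcs1, the enzyme before HMG-CoA reductase, at -0.61 (SE 0.040). Acaca, the acetyl-CoA carboxylase that commits carbon to fatty acids, differed in direction, at 106.3, 117.8 and 115.7 CPM on ribosomes against 77.8, 80.4 and 78.1 CPM. Its groups did not overlap (log2 0.53, SE 0.048, adjusted p = 5.5e-12). Mevalonate kinase (Mvk) was likewise higher at 0.66 (SE 0.059).

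Regulators held in the ER membrane until they are activated were higher for 17 of 18 (median 1.08), and the other was not called. Among them the transcription factor precursor Creb3l1 was at 1.42 (SE 0.068) and the sterol sensor partner Insig2 at 1.39 (SE 0.053). Xbp1, whose mRNA is spliced at the ER membrane by Ire1, was at 98.8, 99.6 and 105.3 CPM on ribosomes and 41.5, 41.5 and 40.9 CPM in whole-cell RNA. The ratio was 2.45-fold (log2 1.29, SE 0.049, adjusted p = 9.1e-23) with no overlap. Atf6, whose single segment lies inside the chain, was at 0.18 (SE 0.055), a call lost when ER ribosome-bound replicate 2 (0.12) or whole-cell replicate 1 (0.14) was left out. That member was the stress regulator Nfe2l2, which is not itself an ER membrane protein, at -0.06 (SE 0.041, adjusted p = 0.17), which was 0.17 and called under cytosolic scaling and -0.11 and called without ER ribosome-bound replicate 2.

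Of 27 proteins that shape the ER or bind ribosomes to it, 20 were higher and 5 lower (median 0.82). The reticulon Rtn1 was at 1.91 (SE 0.060) and Arl6ip5 at 1.86 (SE 0.046). Ktn1, or kinectin, is a rod-like protein with an N-terminal segment and 1327 residues, and it was at 62.4, 66.4 and 65.7 CPM on ribosomes against 158.9, 160.8 and 152.5 CPM. That placed it 2.43-fold lower (log2 -1.28, SE 0.043, adjusted p = 1.5e-24), with no overlap, and the calcium channel Itpr1 (2749 residues) was lower as well (-0.98, SE 0.049). Membrane proteins of the nuclear envelope, which is continuous with the ER, were higher for 18 and lower for 4 of 22 (median 0.92), with Tmem97 at 1.88, the torsin Tor1a at 1.8 and the linker proteins Syne2 (6874 residues) and Syne3 (975 residues) at -0.74 (SE 0.098) and -0.85 (SE 0.173). Lamins and soluble nucleoporins were lower for 20 of 26 and higher for 2 (median -0.45, or -0.22 under cytosolic scaling), Nup205 at -1.49 (SE 0.041) and Ranbp2 at -1.29 (SE 0.046) being lowest. Lmna, a lamin, at 0.29 (SE 0.068) and Nup155 at 0.13 (SE 0.038) were the higher pair.

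Cargo of the secretory route was higher almost throughout. Of 58 secreted and matrix proteins tested among 60 listed, 54 were higher and 2 lower (median 1.65). Wnt3, a secreted morphogen, was at 10.2, 10.5 and 8.34 CPM on ribosomes against 1.49, 1.67 and 1.56 CPM, with no overlap (6.16-fold, log2 2.62, SE 0.152). The 2 lower members were a laminin chain and a binder of latent TGF-beta. Lama1, the laminin chain of 3083 residues, was at 21.9, 26.0 and 20.3 CPM on ribosomes and 35.4, 39.0 and 34.6 CPM in whole-cell RNA. All ribosome-bound values were below all whole-cell values (log2 -0.67, SE 0.075, adjusted p = 8.9e-10). Ltbp1 was at 19.2, 21.1 and 17.7 CPM against 36.8, 36.9 and 36.3 CPM, again without overlap (log2 -0.92, SE 0.065). Leaving out 1 ER library at a time gave 51 to 54 higher secreted proteins and 2 lower.

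All 23 GPI-anchored proteins tested of 25 listed were higher (median 1.79), from Ly6a at 2.74 (SE 0.184), a member of a family of similar genes, and the ephrin Efna1 at 2.09 (SE 0.073) to Cd24a at 0.95 (SE 0.070) and Lypd6 at 0.86 (SE 0.278). Of 64 adhesion proteins and surface receptors, 60 were higher and 2 lower (median 1.09). Bsg, or basigin, an escort of lactate transporters, was at 2854, 2970 and 2801 CPM on ribosomes and 644.4, 697.0 and 616.3 CPM in whole-cell RNA. The difference was 4.41-fold (log2 2.14, SE 0.042, adjusted p = 2.4e-31) and far beyond the spread of either group. The junction protein F11r was at 2.10 (SE 0.037). The lower pair were giant lipoprotein receptors. Lrp2, of 4660 residues, was at 11.5, 12.5 and 11.8 CPM on ribosomes against 26.9, 27.2 and 28.6 CPM (2.31-fold lower, log2 -1.21, SE 0.077), and Lrp1, of 4545 residues, was at 115.0, 131.5 and 111.6 CPM against 191.5, 215.7 and 191.4 CPM (log2 -0.74, SE 0.053). Neither gene's groups overlapped.

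Solute carriers and pumps were higher for 48 of 52 and lower for 3 (median 0.97), with the sodium pump subunit Atp1b1 at 1.6 (SE 0.036) and the amino acid exchanger Slc7a5 at 1.49 (SE 0.036). Among the lower members was a soluble ribosome-recycling ATPase, Abce1 (-0.72), which is not a protein of the secretory route although it belongs to a transporter family. All 45 lysosomal proteins were higher (median 1.61). Psap, the saposin precursor, was at 2413, 2399 and 2372 CPM on ribosomes and 505.5, 516.4 and 505.2 CPM in whole-cell RNA. Its replicates lay within a narrow range in both groups, and the ratio was 4.71-fold (log2 2.23, SE 0.034, adjusted p = 4.4e-34). Grn, the progranulin precursor, was at 724.5, 736.0 and 732.4 CPM against 159.1, 163.7 and 151.5 CPM (log2 2.21, SE 0.041). The chloride exchanger Clcn7 was at 0.77 (SE 0.056). Ids, the iduronate sulfatase, was nearest to 0 at 0.21 (SE 0.092). It was not past the threshold by DESeq2 (adjusted p = 0.15), without a filter on low counts or with the 6 ER libraries alone. Nor was it without ER ribosome-bound replicate 2 or 3 or whole-cell replicate 2 or 3 (0.15 to 0.22). The same held, with the value at 0.21, without cytosol ribosome-bound replicate 1 or 3 or cytosol whole-cell replicate 1, which enter only through the shared scaling and spread.

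Of 43 Golgi glycosyltransferases and residents, 41 were higher and the others not called (median 1.19), and all 19 cargo receptors were higher (median 1.54). The cargo-sorting proteins Tmed9 and Tmed10 were at 2.05 (SE 0.040) and 1.91 (SE 0.035), and the lectins Lman2 and Lman1 at 1.87 (SE 0.036) and 1.82 (SE 0.035). The collagen-export receptors Mia3 and Mia2 were lowest among cargo receptors at 0.84 (SE 0.040) and 0.53 (SE 0.047). Membrane-cleaving proteases and their substrates were higher for 20 of 20 tested (median 1.20), App at 1.89 (SE 0.045) and Aplp2 at 1.81 (SE 0.036) against the inactive rhomboid Rhbdf2 at 0.25 (SE 0.065, adjusted p = 0.06 by DESeq2). App is one of the genes whose short leader is not found by the 19-residue search, so its class is a C-terminal segment only.

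Members of 1 complex or family differed with their place in it. All 8 genes of the membrane sector of the V-ATPase, the proton pump of lysosomes, were higher (median 1.6), with the accessory subunits Atp6ap1 and Atp6ap2 at 1.99 (SE 0.050) and 1.84 (SE 0.040). Atp6v0d1, a member of that sector with no membrane segment, was at 0.11 (SE 0.049) and lost the call without ER ribosome-bound replicate 1 or 2, its whole-cell replicate 1 or 3, cytosol ribosome-bound replicate 3 or cytosol whole-cell replicate 1 or 3 (0.05 to 0.11). Atp6v0d1 was also not called by DESeq2 (adjusted p = 0.13), with RLE size factors or with the 6 ER libraries alone. Of the 8 soluble-sector genes 1 was higher and 2 lower, with a median of -0.05 (0.19 under cytosolic scaling, 6 higher and 2 lower), and Atp6v1a was at -0.73 (SE 0.041). Selenoproteins, which share the recoding of a stop codon, divided in the same manner. All 9 tested of the ER and secretory pathway were higher (median 1.52), with the deiodinase Dio3 at 2.32 (SE 0.160), the folding factor Selenof at 1.68 (SE 0.037) and the lipid enzyme Selenoi at 0.70 (SE 0.057). Of 9 in the cytosol, nucleus and mitochondria 3 were higher and 2 lower (median 0.03), Gpx4, which reduces lipid peroxides, being at 0.21 (SE 0.037) and Selenoo at -0.47 (SE 0.099).

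**Figure D3:**
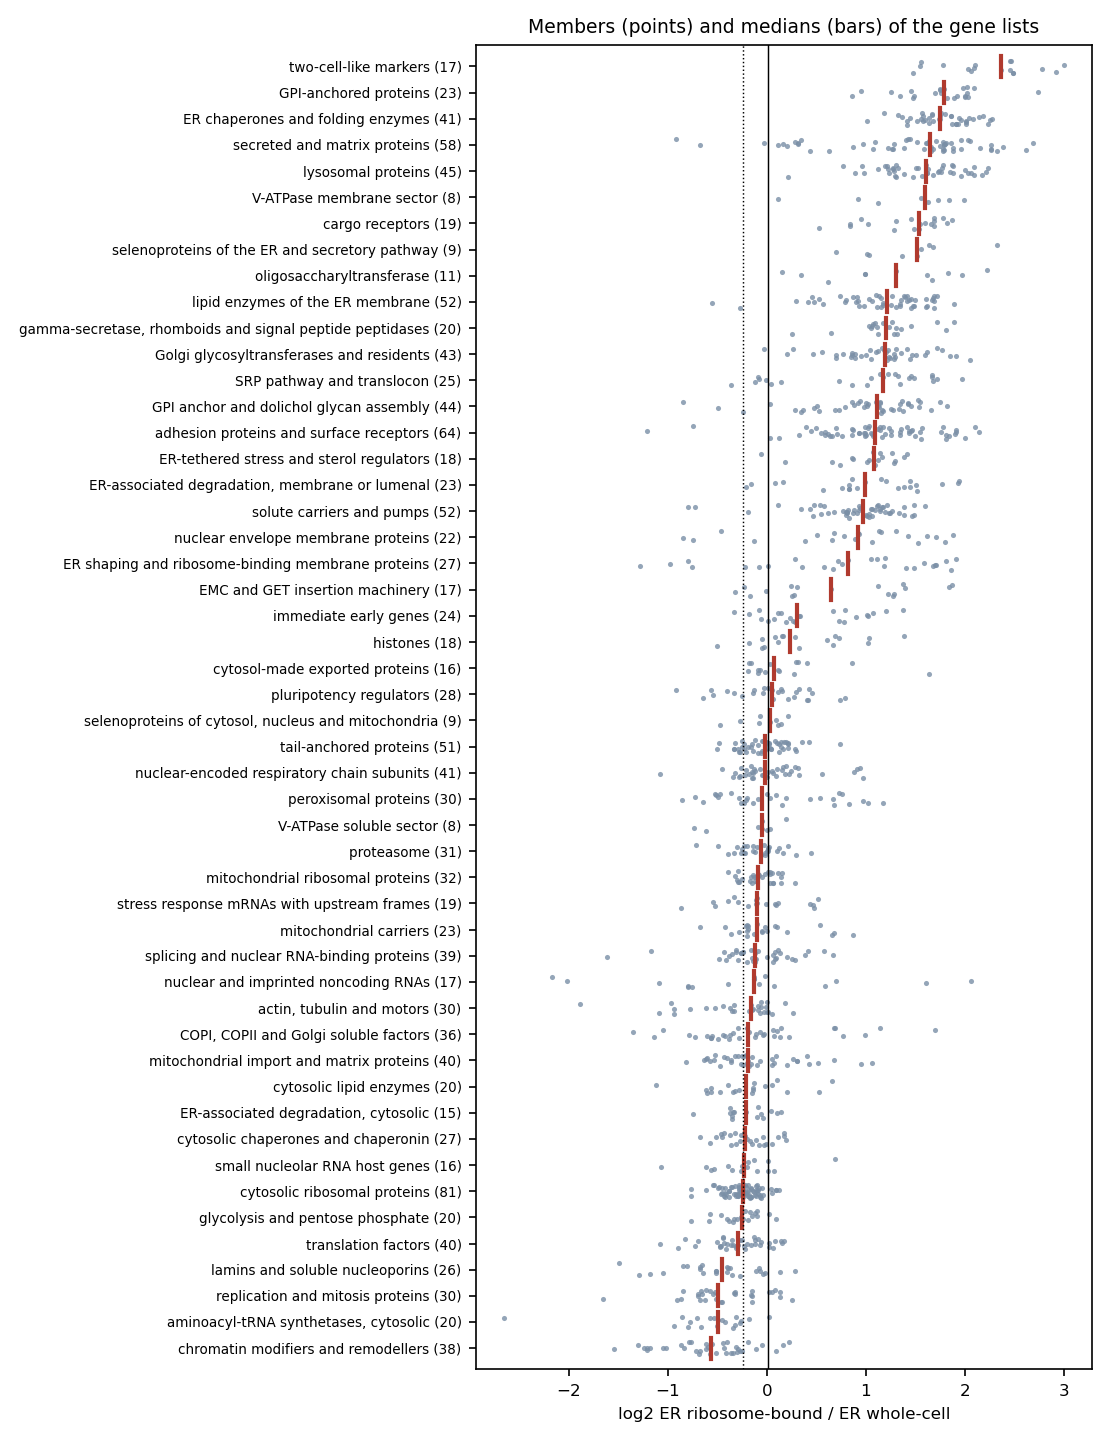
Log2 ratio of ER ribosome-bound over whole-cell RNA (x axis) for the members of each gene list (points), with the list median as a red bar. The solid line is the median of all tested genes (0.01) and the dotted line, 0.236 below 0, marks where 0 would lie under cytosolic scaling; medians of the secretory lists lie between 0.65 and 1.79 and those of cytosolic lists near or below the solid line.

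Proteins inserted into membranes after synthesis did not share a direction. Of 51 tail-anchored proteins, 12 were higher and 19 lower (background 32.5% and 30.6%), with a median of -0.02, or 0.22 with 31 higher and 4 lower under cytosolic scaling. Leaving out 1 ER library at a time gave 8 to 12 higher. Stx16, a syntaxin of the Golgi, was at 41.3, 41.0 and 43.7 CPM on ribosomes and 56.6, 60.2 and 61.1 CPM in whole-cell RNA. The ribosome-bound values were all lower (log2 -0.50, SE 0.049, adjusted p = 3.4e-11). Rhot1, an outer-membrane GTPase of mitochondria, was at -0.48 (SE 0.044). Usp30, a mitochondrial deubiquitinase whose segment lies inside the protein rather than at its end by this search, was at 50.9, 44.8 and 46.8 CPM against 28.1, 27.7 and 29.1 CPM, with no overlap (log2 0.74, SE 0.055), and the cell death protein Bax at 0.43 (SE 0.036).

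Proteins exported from the cytosol without passing the ER were tested for 16 of 19 listed, and 7 were higher and 4 lower (median 0.07, or 0.31 with 14 higher under cytosolic scaling). S100a6, a small calcium-binding protein with no segment, was at 34.2, 34.7 and 32.9 CPM on ribosomes and 10.3, 11.8 and 10.6 CPM in whole-cell RNA. Its groups did not overlap (3.13-fold, log2 1.64, SE 0.072). The annexin Anxa1 was at 0.86 (SE 0.175). Both also had positive ratios on cytosol-labelled ribosomes, at 1.07 and 0.84.

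Of 36 soluble coat proteins of COPI and COPII vesicles and Golgi factors, 8 were higher and 21 lower (median -0.19, or 0.05 with 17 and 13 under cytosolic scaling). The golgin Golga4 (2238 residues) was at -1.14 and the ER exit site scaffold Sec16a (2357 residues) at -1.35 (SE 0.044). The small GTPases that start COPII coats stood apart. Sar1b, whose first bases are printed above, was at 118.1, 113.7 and 119.0 CPM on ribosomes against 36.4, 35.9 and 35.7 CPM. The groups were far apart, at 3.25-fold (log2 1.70, SE 0.044, adjusted p = 8e-28), while its ratio on cytosol-labelled ribosomes was 0.01. Its paralog Sar1a, also of 198 residues, was at 1.14 (SE 0.037) at the ER and -0.04 in the cytosol.

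Sar1b and Sar1a belong to a small group. Of 8865 genes in whose protein no segment was found, also when a shorter window of 11 residues was searched near the start, the median ratio was -0.10. Of these, 82 were higher over whole-cell RNA and at the same time over 2-fold more enriched at the ER than in the cytosol by the test of that difference, 51 of them reaching 10 CPM. The group held secreted or lumenal proteins whose leaders these searches miss, such as Grn, Fstl3, Selenof and Serpine2. It also held Srpr, Sar1a and Sar1b, which act on the cytosolic face of the ER. Outside the rule for named genes and picked after their values were seen, Igfbp3, a secreted binder of insulin-like growth factors, was at 1.59 (SE 0.055) and Foxh1, a nuclear transcription factor of the nodal pathway, at 1.01 (SE 0.044).

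Nuclear-encoded mitochondrial proteins were on the whole close to the median of all genes. Among 41 respiratory chain subunits, 16 were higher and 17 lower (median -0.02, or 0.22 with 28 and 4 under cytosolic scaling). Cox4i1, a subunit of cytochrome c oxidase, was at 1360, 1375 and 1385 CPM on ribosomes and 713.8, 723.5 and 709.2 CPM in whole-cell RNA. The groups were separate (1.92-fold, log2 0.94, SE 0.032, adjusted p = 3e-24). The small complex I subunit Ndufa1, with an N-terminal segment and 70 residues, was at 0.97 (SE 0.053), while the larger Ndufs1 was at -0.45 and the flavoprotein Sdha at -1.08 (SE 0.037). Mitochondrial carriers were higher for 5 and lower for 12 of 23 (median -0.10, or 0.14 with 11 and 3 under cytosolic scaling), from Slc25a28 at 0.87 (SE 0.054) to Slc25a36 at -0.67 (SE 0.038).

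Import and matrix proteins were higher for 10 and lower for 24 of 40 (median -0.19, or 0.04 with 16 and 13). Tomm40, the channel of the outer membrane, was at 226.5, 246.2 and 251.6 CPM against 116.6, 109.5 and 120.8 CPM, with no overlap (log2 1.06, SE 0.044). The inner-membrane translocase Timm22 was at 0.95 (SE 0.063), and the matrix enzyme Ogdh at -0.82 (SE 0.045). Mitochondrial ribosomal proteins were higher for 5 and lower for 13 of 32 (median -0.09, or 0.14 with 19 and 1 under cytosolic scaling). Peroxisomal proteins were higher for 10 and lower for 14 of 30 (median -0.05, or 0.19 with 17 and 7). Among them the membrane proteins Pxmp4 and Abcd4 were at 1.17 (SE 0.066) and 1.02 (SE 0.051), and the matrix enzyme Agps at -0.86 (SE 0.038). Abcd4 is a transporter that also works in lysosomes.

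Lists of the translation apparatus, metabolism, the proteasome, the cytoskeleton and nuclear processes in the next paragraphs had medians below that of all genes. Most of these shifts depended on scaling. Translation factors, synthetases, glycolysis, the proteasome and cytosolic chaperones are themselves the reference of cytosolic scaling. The values of these lists under it are therefore relative to each other. Cytosolic ribosomal proteins were lower for 71 and higher for 3 of 81, with a median of -0.24, which was 0.00 with 26 higher and 23 lower under cytosolic scaling. Rplp0, of the ribosomal stalk, was at 1453, 1459 and 1480 CPM on ribosomes against 2470, 2577 and 2368 CPM, with no overlap (log2 -0.76, SE 0.034). Rps2 was also at -0.76, and Rpl18 at 0.12 (SE 0.035). Rpl31, the tagged protein, was at 1065, 1054 and 1053 CPM against 1115, 1165 and 1091 CPM (log2 -0.09, SE 0.033), a value that was 0.15 under cytosolic scaling and lost the call without ER ribosome-bound replicate 3 (-0.08) or its whole-cell replicate 2 (-0.06). Rpl31 was also not called with at least 50 counts in 3 libraries (-0.06). Ribosomal protein genes, Gapdh and Eef1a1 have processed pseudogenes that could have shared their reads.

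The elongation factor Eef1a1 was at 14349, 14527 and 13885 CPM on ribosomes against 18041, 18998 and 17593 CPM, without overlap (log2 -0.35, SE 0.032). Translation factors were lower for 31 and higher for 4 of 40 (median -0.29, or -0.05 with cytosolic scaling, where 18 were lower and 14 higher). The initiation factor subunit Eif2s3x at -1.08 (SE 0.038) and the joining factor Eif5b at -0.90 (SE 0.036) were lowest, and Eif1 (113 residues) was at 0.17 (SE 0.042). Cytosolic aminoacyl-tRNA synthetases were lower for 19 of 20 (median -0.49), and 15 were lower and 1 higher under cytosolic scaling (-0.26), with Rars at -0.94 (SE 0.038). Glycolysis and the pentose phosphate route were lower for 17 of 20 (median -0.25, or -0.01 with 7 and 7), with the phosphofructokinase Pfkl at -0.76 and Gapdh at -0.15 (SE 0.033), or 0.09 under cytosolic scaling.

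The proteasome was higher for 6 and lower for 15 of 31 (median -0.06, or 0.17 with 20 and 4 under cytosolic scaling), from Psmd3 at 0.45 to Psmd2 at -0.71. Cytosolic chaperones were higher for 4 and lower for 18 of 27 (median -0.22, or 0.02 with 11 and 8), with the chaperonin subunits Cct6a and Cct8 at -0.67 (SE 0.034) and -0.57 (SE 0.033) and Hsp90ab1 at 0.19 (SE 0.030). Actin, tubulin and motors were lower for 19 and higher for 2 of 30 (median -0.16, or 0.08 with 13 higher and 12 lower). Pfn1, which binds actin monomers, was at 0.26 (SE 0.034), and Actb at -0.09 (SE 0.037, 0.15 under cytosolic scaling). The call of Actb was lost without ER ribosome-bound replicate 1 or 2 or its whole-cell replicate 2 or 3 (-0.09 to -0.07). It was also lost with at least 50 counts in 3 libraries (-0.07).

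Chromatin and replication proteins were mostly lower under both scalings. Chromatin modifiers and remodellers were lower for 34 of 38 (median -0.56), and 26 were lower and 5 higher under cytosolic scaling (-0.32). Among them the remodeller Chd8 (2582 residues) was at -1.54 (SE 0.044), the methyltransferase Kmt2a (3963 residues) at -1.3 (SE 0.059) and Smarcb1 (385 residues) at 0.22 (SE 0.037). Replication and mitosis proteins were lower for 24 of 30 (median -0.49, or -0.25 with 20 lower and 10 higher). Pole, a replicative polymerase, was at -0.91 (SE 0.044) and the spindle factor Tpx2 at 0.25 (SE 0.033). Splicing and RNA-binding proteins were lower for 23 and higher for 11 of 39 (median -0.12, or 0.12 with 23 higher and 8 lower under cytosolic scaling). In that list the spliceosome core protein Prpf8 (2335 residues) was at -1.61 (SE 0.042) and Snrnp70 at -1.17 (SE 0.052), while Sf3b1 was at 0.58 (SE 0.042) and Son, a speckle protein of 2444 residues, at 0.67 (SE 0.047).

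Length of the protein went with the ratio inside the classes. Among genes without a segment, the median log2 ratio was 0.09 for the 198 proteins of up to 100 residues, -0.06 for the 2612 of more than 300 and up to 500, -0.29 for the 1054 of more than 800 and up to 1200, and -0.57 for the 139 above 2000 residues. On cytosol-labelled ribosomes the medians of these classes were 0.07, 0.08, -0.21 and -0.66. Across 6616 such genes with at least 10 CPM, Spearman's rho between protein length and the ratio was -0.47 at the ER and -0.47 in the cytosol, and 0.05 for the difference of both ratios. These are descriptions across genes, which are not independent replicates and share libraries, and for transcript length rho with the ratio at the ER was -0.46.

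Proteins with an N-terminal segment had the same feature on a higher level. The median was 1.27 in 270 genes of up to 200 residues, 1.37 in 874 of more than 200 and up to 500, and 1.01 in 103 of more than 1000 and up to 1500. It was 0.85 in the 44 genes of more than 1500 and up to 2000 and 0.23 in the 45 above 2000, of which 37.8% were higher and 13.3% lower. In the cytosol these classes ran from -0.08 to -0.90, and the difference between both ratios stayed between 1.32 and 1.63 up to 2000 residues and was 1.13 above. Of the 194 genes with a protein that were lower by over 2-fold, 82.5% coded for more than 1000 residues (median 1891), against 13.5% of all 14120 genes (median 461) and 5.46% of the 2491 that were higher by over 2-fold (median 401).

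**Figure D4:**
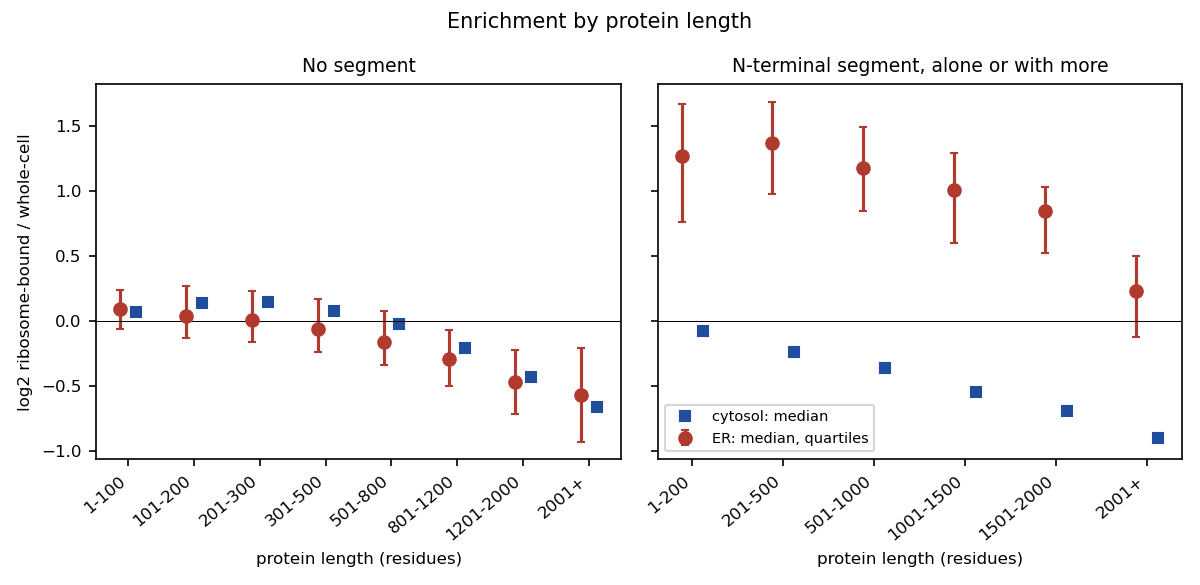
Median log2 ratio of ribosome-bound over whole-cell RNA (y axis) by class of protein length (x axis) for genes without a segment and genes with an N-terminal segment; ER-labelled ribosomes with quartiles as bars, cytosol-labelled ribosomes as medians. In both panels the medians of the longest class lie below those of the shorter ones, and the ER medians of N-terminal segment genes lie above the cytosol medians in every class.

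Messages translated inside mitochondria were depleted. All 12 mitochondrially encoded mRNAs tested were lower, with log2 ratios from -6.48 to -5.20, and they summed to 344 to 413 CPM on ribosomes against 18100 to 18900 CPM in whole-cell RNA. mt-Co1, a subunit of cytochrome c oxidase, was at 254.0, 236.0 and 275.3 CPM against 10841, 11135 and 10341 CPM. That is 42.2-fold lower (log2 -5.40, SE 0.052, adjusted p = 5.3e-40). The median of the 12 on cytosol-labelled ribosomes was -5.98, against -5.90 at the ER. mt-Nd3 was the member closest to 0 at -5.20 (SE 0.733).

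Noncoding RNAs did not follow a common direction. Of 17 nuclear and imprinted noncoding RNAs, 4 were higher and 8 lower (median -0.13, or 0.10 with 4 and 6 under cytosolic scaling). Malat1, a nuclear-retained RNA, was at 185.0, 164.7 and 238.5 CPM on ribosomes and 63.3, 62.1 and 67.3 CPM in whole-cell RNA. The ribosome-bound values were spread more widely than those of most named genes and did not overlap the others (3.04-fold, log2 1.61, SE 0.098, adjusted p = 1e-16). Tsix, antisense to Xist, was at 2.06 (SE 0.147), and reads of antisense partners may not be separable here. H19 was at -2.17 (SE 0.265) and Rian at -2.02 (SE 0.054). On cytosol-labelled ribosomes the ratios were 1.27 for Malat1, 2.15 for Tsix, -2.97 for H19 and -2.31 for Rian. The difference between ER and cytosol was called positive for 5 of the 17, among them Rian (0.29) and, at the threshold, Malat1 (0.34, adjusted p = 0.05), and the median difference was 0.25. Host genes of small nucleolar RNAs were lower for 11 and higher for 1 of 16 (median -0.23, or 0.01 with 5 and 5 under cytosolic scaling), from Snhg20 at 0.69 (SE 0.118) to Snhg14 at -1.07 (SE 0.109).

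The 2-cell-like markers, of a rare state of embryonic stem cell cultures, were higher for all 17 tested of 22 matched, each by over 2-fold (background 16.5%), with a median of 2.36. Usp17lb, a deubiquitinase of a family of near-identical genes, was at 5.05, 4.85 and 6.33 CPM on ribosomes and 0.722, 0.688 and 0.608 CPM in whole-cell RNA, 8.0-fold higher (log2 3.00, SE 0.207). Its ratio was 3.08 on cytosol-labelled ribosomes, and the median of the list there was 2.79. Zscan4a was at 11.5, 9.74 and 8.98 CPM against 1.95, 1.77 and 2.09 CPM (log2 2.36, SE 0.136) and at 3.22 in the cytosol. Tmem92, a membrane protein of this set, was at 2.92 (SE 0.175), and Sp110 and Zfp352 were lowest at 1.55 (SE 0.449) and 1.48 (SE 0.452). The genes are read at low levels, and leaving out 1 ER library at a time gave 15 to 17 higher. The filter on counts could keep such a gene through ribosome-bound libraries alone, where it is high. The 5 matched members not tested had few reads in both ER groups. The share of higher genes among those tested is therefore not independent of the filter.

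Of 24 immediate early genes, 16 were higher and 2 lower (median 0.31), with the transcription factors Egr2 at 1.38 (SE 0.227) and Jun at 1.20 (SE 0.070) and Klf6 at -0.33 (SE 0.054, or -0.09 and not called under cytosolic scaling). Their median on cytosol-labelled ribosomes was 0.34. Histone genes with reads in poly(A) RNA were higher for 10 and lower for 1 of 18 (median 0.23), Hist1h1a being at 1.39 (SE 0.183) and Hist1h2bc at -0.50 (SE 0.139, or -0.26 and not called under cytosolic scaling). Their sequences are alike, and reads could have been divided among copies.

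Stress-response mRNAs with upstream reading frames were higher for 6 and lower for 10 of 19 (median -0.10, or 0.14 with 11 and 5 under cytosolic scaling). Atf4, the effector of the integrated stress response, was at 212.6, 223.0 and 219.4 CPM on ribosomes and 198.6, 216.9 and 200.1 CPM in whole-cell RNA. The groups overlapped, and the log2 ratio of 0.09 (SE 0.037) lost its call without ER ribosome-bound replicate 2 or 3 or whole-cell replicate 1 or 3 (0.07 to 0.09). Atf4 was also not called by DESeq2 (adjusted p = 0.061), without a filter on low counts or with the 6 ER libraries alone. Both regulatory subunits that direct dephosphorylation of eIF2, Ppp1r15a and Ppp1r15b, were higher at 0.52 (SE 0.053) and 0.48 (SE 0.035), and the serine-pathway enzyme Psat1 and the kinase Uhmk1 were lower at -0.54 (SE 0.032) and -0.87 (SE 0.053). On cytosol-labelled ribosomes Ppp1r15a was at 0.25 and Ppp1r15b at -0.33.

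Pluripotency regulators were higher for 13 and lower for 8 of 28 (median 0.05, or 0.29 with 19 and 6 under cytosolic scaling). Sox2 was at 786.8, 796.4 and 836.0 CPM on ribosomes against 584.8, 578.7 and 593.6 CPM (log2 0.46, SE 0.035), and Nanog at 672.3, 676.2 and 654.7 CPM against 491.5, 498.6 and 502.1 CPM (log2 0.42, SE 0.032). Neither gene's groups overlapped. Pou5f1 (Oct4) was at 1380, 1406 and 1383 CPM against 1534, 1559 and 1512 CPM, lower without overlap (log2 -0.14, SE 0.032), or 0.09 under cytosolic scaling. The list ran from the transcription factors Tbx3 at 0.79 (SE 0.040) and Myc at 0.74 (SE 0.101) to the RNA-binding protein Lin28a at -0.64 (SE 0.037) and the nuclear receptor Nr0b1 at -0.92 (SE 0.065).

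Cytosol-labelled ribosomes, with whole-cell RNA of their own, gave the ratio to which the one at the ER was compared. The difference between both log2 ratios, tested in the same model, was positive in 4023 genes (24.8%) and negative in 3010 (18.6%). A positive difference of over 2-fold was called in 2849 genes (17.6%) and a negative one in 33 (0.203%). Under cytosolic scaling the counts were 6402 positive and 371 negative. They were 3831 and 3683 with RLE size factors, and 3795 and 3882 with mitochondrially encoded genes left out. Which direction held more genes therefore depended on the processing. Of the 2674 genes higher by over 2-fold at the ER, 2231 had a positive difference, and 1122 were lower and 384 higher on cytosol-labelled ribosomes. Of the 312 genes lower by over 2-fold at the ER, 279 were also lower on cytosol-labelled ribosomes, 64 had a positive and 23 a negative difference.

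Several large secreted and membrane proteins that were lower at the ER were lower still in the cytosol. Ltbp1 was at -0.92 at the ER and -2.48 in the cytosol, a difference of 1.57 (SE 0.103, adjusted p = 1.2e-15). Lama1 differed by 1.44 (SE 0.117), from -0.67 to -2.11, and Lrp2 by 1.10 (SE 0.122), from -1.21 to -2.31. Stt3a, which was higher at the ER (0.35) and at -1.53 in the cytosol, differed by 1.88. Ktn1, at -1.28 and -2.08, differed by 0.80 (SE 0.062). Itpr1, at -0.98 and -1.46, differed by 0.48. The difference was not called for Syne2 (-0.74 and -0.93) or Syne3 (-0.85 and -0.83). Dync1h1 and Mdn1, which have no secretory signal, differed by 0.46 (SE 0.062) and 0.24 (SE 0.080).

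ER chaperones were positive in this difference for 41 of 41 genes (median 2.23) and lysosomal proteins for 45 of 45 (2.21), and adhesion proteins for 64 of 64 (1.8). In the cytosol, where 33.0% of all tested genes were lower and 20.8% higher, 37 of the 41 chaperones, 42 of the 45 lysosomal and 56 of the 64 adhesion genes were lower than in whole-cell RNA. Cytosolic ribosomal proteins had a positive difference for 60 of 81, the others not being called, with a median of 0.17. The proteasome was negative for 24 of 31 (median -0.24) and mitochondrial ribosomal proteins for 23 of 32 (-0.23). Tail-anchored proteins were positive for 5 and negative for 17 of 51 (median -0.15). Differences this close to 0 depend on scaling. Over all genes the negative ones fell from 3010 to 371 under cytosolic scaling, and list values of the difference under it are not given here.

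The largest differences were taken among genes that reached 10 CPM in an ER group and whose ER ribosome-bound and whole-cell libraries did not overlap. Genes with a ratio near 0 at the ER could be left out by this condition. The 8 largest positive differences were in membrane and lumenal proteins. They were led by the melanosome protein Pmel at 2.76 (SE 0.189), with 12.6, 12.4 and 10.9 CPM on ER-labelled ribosomes against 3.91, 3.74 and 4.22 CPM in their whole-cell RNA. Ddost (2.66), Bsg (2.61), the ER prolyl isomerase Fkbp7 (2.59), the surface protein Susd2 (2.57), Pigs (2.56), Psap (2.56) and Lman1 (2.55) followed. The 8 most negative under these conditions were smaller. They were Zscan4a (-0.85), Srfbp1 (-0.68), the lamin Lmnb2 (-0.66), the RNA-binding proteins Myef2 (-0.65) and Taf15 (-0.65), the pyruvate dehydrogenase subunit Dlat (-0.64), the Ran exchange factor Rcc1 (-0.63) and Kctd1 (-0.62). Srfbp1, a binding protein of serum response factor, was at 39.0, 40.6 and 39.7 CPM on ER-labelled ribosomes against 49.5, 51.7 and 47.2 CPM in whole-cell RNA. It was lower at the ER (log2 -0.31, SE 0.054, or -0.08 and not called under cytosolic scaling) and at 0.37 in the cytosol.

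**Figure D5:**
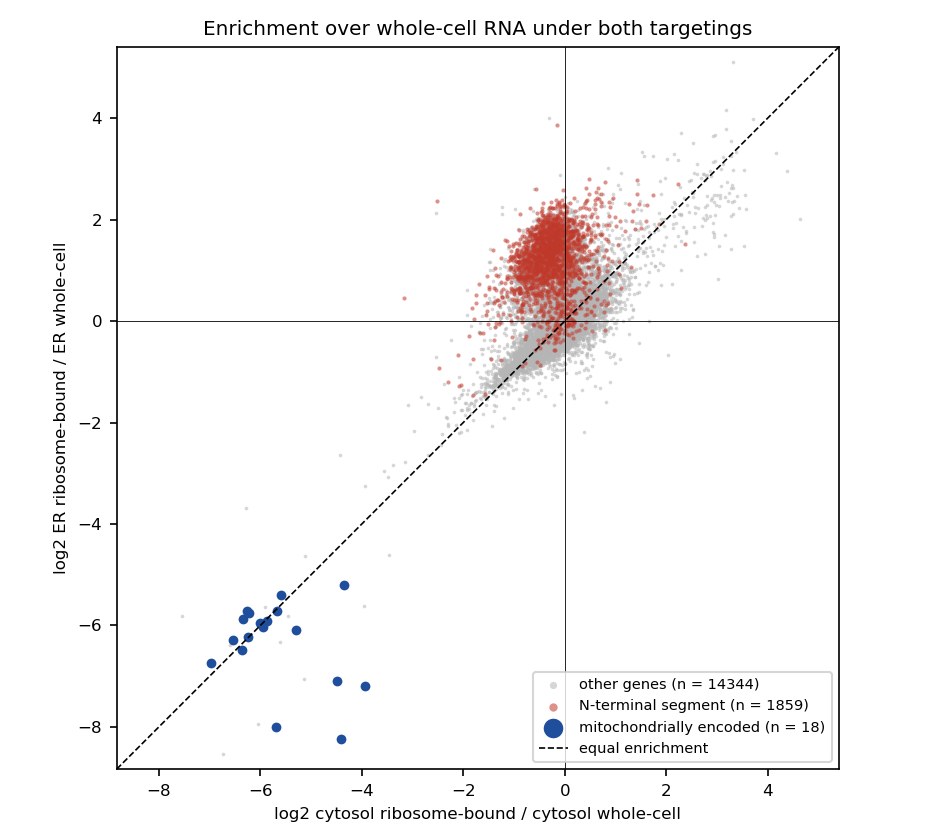
Log2 ratio of ribosome-bound over whole-cell RNA at the ER (y axis) against that in the cytosol (x axis) for every tested gene; red points are genes with an N-terminal segment, blue points mitochondrially encoded genes, grey points all others, and the dashed line marks equal ratios. The red points lie mostly above the line (class medians of the difference 1.54 and 1.58), and the blue points lie at the lower left near the line.

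The classes of hydrophobic segments differed in the same way. The median difference between both ratios was 1.54 for an N-terminal segment alone, 1.58 for one with further segments and 1.18 for several internal ones. It was 0.13 for a single internal segment, 0.08 for a C-terminal one and -0.12 without any. Differences this close to 0 depend on scaling, and class values under cytosolic scaling are not given here. On cytosol-labelled ribosomes the medians of these 6 classes lay between -0.33 and 0.03. Among genes with the highest ratio in their class were the MHC class I chain H2-D1 (2.21) and the chemokine Cx3cl1 (2.15), both with a C-terminal segment only by this search, Tmem59 (2.11) with a single internal one, and Ttyh2 (2.00) and Steap1 (2.01) with several. Among the lowest were Maoa (-0.81), a mitochondrial outer-membrane oxidase whose segments this search places at the N terminus and further on, and Fnip1 (-1.39) and Sbno1 (-0.97), each with a C-terminal segment only. Copies of MHC genes could share reads with H2-D1.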

How the data were processed

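Poly(A) RNA of 12 libraries was counted, and the 6 with ER targeting are described here. The authors deposited raw read counts for each Ensembl gene in separate files. The submitters' processing notes name STAR 2.7.9a, HTSeq 0.11.2, GRCm39 and DESeq2. Annotation release, strand setting and treatment of multimapped reads: not given in the sources used here, so antisense, overlapping and near-identical genes are uncertain. Class totals for reads outside genes (8.75% to 12.54% of reads over the 12 libraries) entered neither library sizes nor tests.

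Symbols, proteins and sequences came from GENCODE M21 on GRCm38, with 1 APPRIS-ranked transcript per gene, so no genome positions are printed. It matched 52135 of 55416 genes, and the other 3281 held 0.4% of the counts. Genes were kept with filterByExpr by group (16221) and scaled with TMM factors. A model of 4 groups was fitted to 12 libraries (edgeR 4.0.16, R 4.3.3). Its quasi-likelihood test was 2-sided, with p-values adjusted over all genes by Benjamini-Hochberg at 0.05. SE is the size of the log2 ratio divided by the root of F. The biological coefficient of variation was 3.6%. Replicates within the ER groups differed by more than counting noise (chi-square per gene 2.11 to 5.97), and errors cover the spread between replicates, not amplification. On counts simulated for the ER comparison over 16221 genes, 64%, 92%, 98% and 100% of 50 genes changed 1.25-, 1.5-, 2- and 4-fold were recovered, with 13 false calls. For the difference of ratios 46%, 80%, 98% and 100% were recovered, with 3 false calls. The changed genes of this simulation were few, split equally up and down and drawn from genes with over 50 expected counts. The data hold many more changes, mostly upward past 2-fold. The simulation therefore does not give the recovery or false calls of the data, nor those of genes with low counts.

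The members and the 57 gene lists (1498 distinct genes tested) were chosen with earlier results of these data known. Lists have no test of their own. Named genes are the 12 highest and lowest ratios at 10 CPM or more, the 2 highest and lowest of each list and segment class, the 8 most positive and negative differences and a fixed set of reference genes. Except for lists and reference genes, they also had to show no overlap between ER ribosome-bound and ER whole-cell libraries and have no clone or model name. The 12 and the 8 had to be called in their own test, and mitochondrially encoded genes were left out. Alternatives were DESeq2 1.42.0, RLE size factors, cytosolic scaling, a count minimum of 50 in 3 libraries, no filter, mitochondrially encoded genes left out, the 6 ER libraries alone, a replicate block, a test against a 2-fold change, each library left out and a stricter segment threshold. The 11-residue window (mean at least 2.0, first 35 residues) was added after seeing the data. Some genes that this rule names are not reported here.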

Additional observations from a re-analysis of the deposited data

Results flagged for a closer look

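The ratio of ribosome-bound over whole-cell RNA differed between ER and cytosol targeting by the test of that difference (quasi-likelihood test of edgeR, Benjamini-Hochberg adjustment). It was more positive at the ER in 4023 genes and more negative in 3010. Which direction held more genes depended on the processing, as given below. Genes were named for the largest differences at 10 CPM or more only where the ER ribosome-bound and whole-cell libraries did not overlap. The positive ones were Pmel (2.76), Ddost (2.66), Bsg (2.61), Fkbp7 (2.59), Susd2 (2.57), Pigs (2.56), Psap (2.56) and Lman1 (2.55) on the log2 scale. The negative ones were Zscan4a (-0.85), Srfbp1 (-0.68), Lmnb2 (-0.66), Myef2 (-0.65), Taf15 (-0.65), Dlat (-0.64), Rcc1 (-0.63) and Kctd1 (-0.62). All 8 negative differences were smaller than 2-fold. Groups of 3 replicates are too small for a check of single outlying samples.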

How the results depend on the processing

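Cytosolic scaling gave 8246 higher and 2343 lower genes in place of 5271 and 4967, 168 over 2-fold lower in place of 312, and 6402 positive and 371 negative differences in place of 4023 and 3010. With it the ratios of Srp68 (0.12), Nfe2l2 (0.17), Rpl31 (0.15), Gapdh (0.09), Actb (0.15) and Pou5f1 (0.09) turned positive. Its reference is made of 5 of the lists, so shifts of these lists are relative to each other. Genes over 2-fold lower numbered 198 with at least 50 counts in 3 libraries, where fewer genes are tested, and 159 when tested against a 2-fold change (211 at an unadjusted p under 0.05).

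Other settings left the counts within 1.5 times. DESeq2 gave 4803 higher and 4647 lower genes, RLE size factors 5282 and 4951, and the 6 ER libraries alone 5079 and 5043. Positive and negative differences numbered 3831 and 3683 with RLE size factors. They numbered 3795 and 3882 with mitochondrially encoded genes left out, and 3478 and 3831 with at least 50 counts in 3 libraries. The excess of positive differences was therefore not kept under every setting. Leaving out 1 library at a time gave 5014 to 5307 higher, 4692 to 5010 lower, 2654 to 2725 over 2-fold higher and 318 to 334 over 2-fold lower genes, and 3654 to 3961 positive and 2800 to 3820 negative differences. Of 217 genes tracked, the test against a 2-fold change lost the calls of 110, DESeq2 of 4 and RLE size factors of 1. Cytosolic scaling lost 7, gained 1 and reversed 6.

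The design text says that whole-cell RNA came from the same lysates, but no label ties a number to a lysate. Deviations of same-numbered ER libraries from their group means correlated across 9612 genes at -0.007, 0.259 and 0.263. Between numbers 2 and 3 the values were -0.259 and -0.265. Replicates 2 and 3 thus correlated best with their own number, while replicate 1 did not. Deviations from a shared group mean are tied to each other, so these values are not independent. Same-numbered cytosol libraries gave 0.096, 0.1 and 0.056, and those of different numbers -0.149 to 0.059. Whether the numbers pair the samples was left undecided, and the main test treated them as unpaired. A replicate block gave 5362 higher, 5086 lower, 2678 over 2-fold higher and 305 over 2-fold lower genes, and 4112 positive and 3257 negative differences, and it changed the call of 0 of the 217 genes. Depth limits the genes near 1 CPM in whole-cell RNA, whose SE reached 0.452.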
